A study of Mus musculus with 13 samples.

Results

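Loss of the mineralocorticoid receptor in young mouse aorta was examined in 6 arrays, 3 from young mice labelled MR-knockout (called knockout here) and 3 from young mice labelled wildtype (called MR-intact, the study's own term), out of 13 arrays in the series. The arrays were chosen by the age and genotype labels alone, and all 21225 measured genes were compared. All mice were male C57BL/6, and the young ones were 3 to 4 months old. Total RNA came from whole aorta. The other 7 arrays came from 12-month-old mice, 4 MR-intact and 3 knockout. They are used below as separate samples in which to look at the same genes. They also share the estimate of the spread in the fit. In the study's design the deletion is confined to smooth muscle cells. The sources used here name neither the promoter that drives the deletion nor any treatment to induce it, nor do they say whether MR-intact mice carried the transgene or floxed alleles. Whether each array is a separate animal is not stated either, and the p-values then cover only the spread among these arrays, part or all of which may be technical.

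The mineralocorticoid receptor, encoded by Nr3c2, is a nuclear receptor that binds aldosterone and also glucocorticoids. After binding it moves to the nucleus and acts on genes that carry hormone response elements, in part the same elements that the glucocorticoid receptor, encoded by Nr3c1, recognises. It is best known for salt handling in the kidney. In arteries it is also present in smooth muscle and endothelium, where it is known for effects on vascular tone, stiffness and fibrosis that become more marked with age.

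The markers fitted the tissue label: the smooth muscle genes Acta2 (log2 level 12.87 to 12.93 over the 6 arrays), Myh11 (11.83 to 11.96) and Tagln (11.35 to 11.51) were high on all of them. The perivascular fat marker Adipoq (10.96 to 11.13) and the brown fat marker Ucp1 (12.32 to 12.56) were high on all 6 as well. Lists of markers for contractile smooth muscle, endothelium, fibroblasts, fat and macrophages differed less between arrays than those of striated muscle and B lymphocytes. The list mean ran from 7.93 to 8.16 for endothelium, from 9.72 to 9.97 for brown fat and from 7.16 to 7.40 for macrophages. Striated muscle and lymphocyte markers did not behave so evenly. The mean log2 level of 22 skeletal muscle markers was 7.69, 7.20 and 5.51 on MR-intact replicates 1, 2 and 3 and 5.86, 5.80 and 7.29 on knockout replicates 1, 2 and 3. That of 21 cardiac muscle markers was 8.10, 7.78 and 5.87 in MR-intact aorta, against 6.06, 7.03 and 6.79 in knockout aorta. That of 22 B lymphocyte and plasma cell markers was 5.49, 5.72 and 5.18 in MR-intact aorta, against 5.33, 5.25 and 6.67 in knockout aorta. MR-intact replicates 1 and 2 and knockout replicate 3 were thus high for skeletal muscle, and knockout replicate 3 alone for B lymphocytes. The first principal component of the 6 arrays (39.0% of the variance) was led by striated muscle genes such as Atp2a1, Myh1 and Tnnt3, and the second (22.6%) by immunoglobulin genes such as Igha and Ighg3. The genotypes overlapped on both. Arrays of one genotype correlated across genes at 0.9924 to 0.9966, and arrays of different genotypes at 0.9925 to 0.9961.

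**Figure D1:**
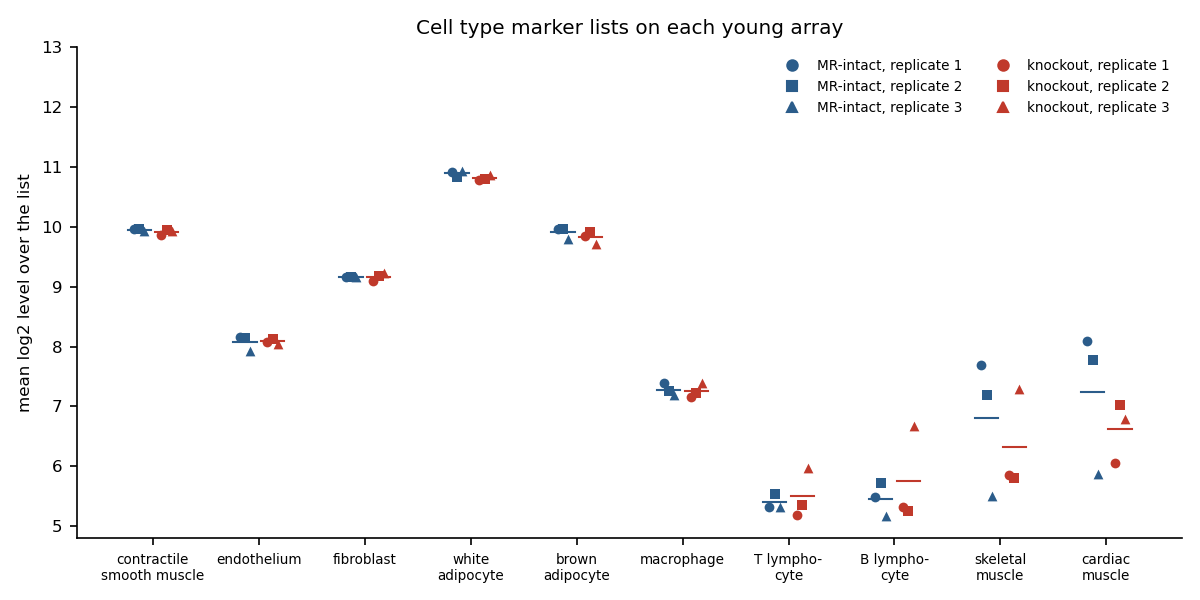
Mean log2 level (vertical axis) of each cell type list on the 6 young arrays, MR-intact in blue and knockout in red, with a symbol per replicate and a line at each group mean. The smooth muscle, endothelial, fibroblast, fat and macrophage lists lie close together, while skeletal muscle spans 5.51 to 7.69 in MR-intact and 5.80 to 7.29 in knockout, and B lymphocyte 5.18 to 5.72 in MR-intact and 5.25 to 6.67 in knockout, highest on knockout replicate 3.

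Nr3c2 (Entrez 110784) was lower on every knockout array than on every MR-intact array. It read 6.68, 6.62 and 6.69 in MR-intact aorta, against 6.26, 6.09 and 6.42 in knockout aorta on the log2 scale. The difference was -0.40 (95% interval -0.70 to -0.10), so the knockout level was 75.6% of the MR-intact level on the linear scale, and it did not pass the test over all genes (limma adjusted p = 1). Among the 9642 genes with a lower mean in knockout it ranked 25 by limma p and 127 by size. In 12-month aorta the knockout level was 61.8% of the MR-intact level (limma adjusted p = 0.0599), and the effects at the 2 ages were not shown to differ (difference -0.29, limma adjusted p = 0.686). Endothelial cells, fibroblasts and other aortic cells keep the gene under a smooth muscle deletion. Where the probes lie relative to the deleted exons is not stated, and probes outside the deletion would not test it. In whole tissue, fewer cells of a type and less RNA per cell cannot be told apart. Nr3c1 read 8.95, 8.97 and 8.86 in MR-intact aorta, against 8.94, 8.96 and 9.02 in knockout aorta, a difference of 0.04 (95% interval -0.10 to 0.19).

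Sgk1, the serum and glucocorticoid regulated kinase that is a textbook target of both corticosteroid receptors, is the member of the corticosteroid response list whose start region holds the complete palindromic hormone response element. Its promoter window is shown for that reason, from 250 bases before to 50 bases after the RefSeq start on the plus strand of assembly GRCm38.p6 (chr10:21993640-21993939), with the element in capitals, its first base 189 bases before the start.
Sgk1 promoter: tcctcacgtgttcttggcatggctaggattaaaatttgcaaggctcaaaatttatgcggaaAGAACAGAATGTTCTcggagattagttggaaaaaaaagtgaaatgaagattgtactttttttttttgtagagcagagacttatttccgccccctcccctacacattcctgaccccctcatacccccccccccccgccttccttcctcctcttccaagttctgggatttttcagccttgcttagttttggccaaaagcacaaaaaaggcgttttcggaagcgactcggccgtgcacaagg
The pattern searched was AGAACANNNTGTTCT, which reads the same on both strands, and 3 of 32851 RefSeq promoter windows of the same length held it (0.0091%). Its half-site, AGAACA or TGTTCT on either strand and contained in the longer pattern, was in 19% of all windows and in 6 of 41 windows (14.6%) of the 26 list genes that could be matched, namely those of Cacna1c, Nedd4, Sgk1 and Tsc22d3. A match is a description of the letters, not a site of binding.

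Sgk1 read 7.31, 7.47 and 7.28 in MR-intact aorta, against 7.22, 7.17 and 7.22 in knockout aorta. All knockout arrays lay below all MR-intact arrays by a narrow margin, and the difference of -0.14 (95% interval -0.44 to 0.15) did not pass the test (limma adjusted p = 1). In 12-month aorta the difference was -0.07.

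Across all genes, no difference between young knockout and young MR-intact aorta passed the test. With limma, 0 of 21225 genes (0.0%) had a Benjamini-Hochberg adjusted p under 0.05, and the lowest adjusted p was 1. At an unadjusted limma p under 0.05 there were 549 genes (2.59%), 373 with a higher mean in knockout (1.76%) and 176 with a lower one (0.829%). When arrays were first centred on their medians the split was 226 higher and 236 lower, and after a second quantile normalization 263 and 276. The count of 549 became 319 without MR-intact replicate 1, 337 without knockout replicate 1, 853 without MR-intact replicate 3 and 933 without knockout replicate 3. By the authors' deposited table, an unadjusted p under 0.05 was listed for 971 genes (4.57%) in the same comparison. Those p-values were matched to within 1e-08 by limma fitted to the 6 young arrays alone, where no adjusted p passed either.

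The differences were small and their intervals narrow for most genes. The median absolute log2 difference was 0.067, the 99th percentile 0.43, and the median half-width of the 95% interval 0.23. For 18259 genes (86.0%) the whole interval lay within 0.5 log2 units of 0, and for 20892 (98.4%) within 1, which is a 2-fold difference. The arrays of the 2 genotypes did not overlap for 2013 genes (9.48%), 1152 with knockout higher (5.43%) and 861 with knockout lower (4.06%). Centring moved this split to 691 higher and 1591 lower, and the second quantile normalization to 1023 and 1111. Non-overlap of 3 against 3 arrays has an exact permutation p of 0.1, so a share near that can arise without a genotype difference. Direction followed the level of the gene. Among the brightest 20% of genes 7.35% did not overlap with knockout lower and 3.2% with knockout higher, and among the 20% just above the dimmest 20% these shares were 0.989% and 8.57%. The median difference was -0.023 in the first of these sets and 0.063 in the other. In the first set the array medians were 8.84, 8.80 and 8.79 in MR-intact aorta, against 8.75, 8.80 and 8.80 in knockout aorta. In the other they were 4.30, 4.36 and 4.38, against 4.46, 4.40 and 4.37. The array medians of the genotypes thus overlapped in both sets.

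Since no gene passed, 23 genes are described from among those with the smallest limma p in each direction among genes with non-overlapping arrays and a higher group mean above the median of all values, a log2 level of 5.89. None of them passed the test over all genes (limma adjusted p = 1 for each). Their order comes from the young differences themselves, over a spread shared with the aged arrays, so the values describe and do not test. The pools from which they came held 380 genes with knockout higher and 655 with knockout lower.

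**Figure D2:**
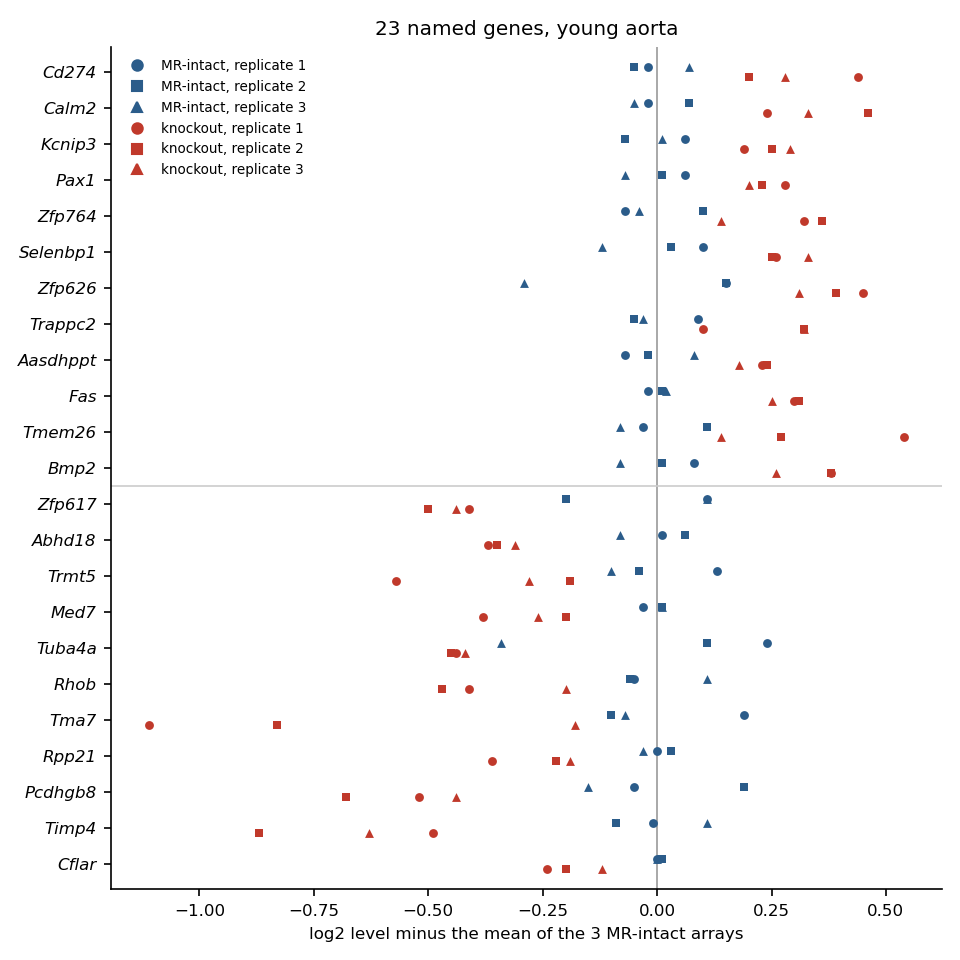
Log2 level of each of the 23 described genes on each young array, minus the mean of the 3 MR-intact arrays (horizontal axis), with MR-intact in blue, knockout in red and a symbol per replicate. The 12 upper genes have all knockout points to the right of the MR-intact points and the 11 lower genes to the left, and Tma7 and Timp4 lie farthest to the left.

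The genes higher in knockout are given first. Cd274, which encodes the immune checkpoint ligand PD-L1, read 7.73, 7.70 and 7.82 in MR-intact aorta, against 8.19, 7.95 and 8.03 in knockout aorta, a difference of 0.31 (95% interval 0.14 to 0.48). Fas, the death receptor that starts caspase 8 signalling, read 7.82, 7.85 and 7.86 in MR-intact aorta, against 8.14, 8.15 and 8.09 in knockout aorta, a difference of 0.28 (95% interval 0.06 to 0.51). The arrays of the genotypes did not overlap for either gene. Bmp2, a bone morphogenetic protein ligand with a known part in vascular calcification, read 5.64, 5.57 and 5.48 in MR-intact aorta, against 5.94, 5.94 and 5.82 in knockout aorta, 0.34 apart (95% interval 0.07 to 0.61).

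Calcium sensors were in the same group. Calm2, one of the calmodulin genes, read 9.67, 9.76 and 9.64 in MR-intact aorta, against 9.93, 10.15 and 10.02 in knockout aorta (difference 0.34). Kcnip3, which binds potassium channels and acts as a calcium-dependent repressor, differed by 0.24. The remaining members were the transcription factor Pax1 (0.24), the zinc finger genes Zfp764 (0.28) and Zfp626 (0.38), Selenbp1, a selenium-binding protein (0.28), Trappc2, of the TRAPP trafficking complex (0.25), Aasdhppt, which attaches phosphopantetheine to carrier proteins (0.22), and the membrane protein gene Tmem26 (0.32).

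Of the genes lower in knockout, Tma7 and Timp4 had the largest differences of those described. Timp4, a tissue inhibitor of metalloproteases that is abundant in heart and vessels, read 8.52, 8.44 and 8.64 in MR-intact aorta, against 8.04, 7.66 and 7.90 in knockout aorta, a difference of -0.67 (95% interval -1.11 to -0.22). Its knockout arrays all lay well below its MR-intact arrays. With the skeletal muscle list mean as a covariate, the difference was -0.65.

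Rhob, a small GTPase of actin and vesicle traffic, read 9.13, 9.12 and 9.29 in MR-intact aorta, against 8.77, 8.71 and 8.98 in knockout aorta, a difference of -0.36 (95% interval -0.60 to -0.13). Cflar, which encodes the inhibitor of caspase 8 that acts below Fas, read 7.32, 7.33 and 7.32 in MR-intact aorta, against 7.08, 7.12 and 7.20 in knockout aorta, a difference of -0.19 (95% interval -0.33 to -0.05). For Rhob and Cflar the young arrays of the genotypes did not overlap. Tma7, a small protein linked to translation, read 7.71, 7.42 and 7.45 in MR-intact aorta, against 6.41, 6.69 and 7.34 in knockout aorta (difference -0.71), with knockout replicate 3 near the MR-intact arrays. Tuba4a, an alpha tubulin, read 8.33, 8.20 and 7.75 in MR-intact aorta, against 7.65, 7.64 and 7.67 in knockout aorta (difference -0.44). Its order within MR-intact was that of the skeletal muscle markers. Knockout replicate 3, which was also high for those markers, read close to the other knockout arrays. With the mean of the markers as a covariate the difference was -0.37, and the part of muscle in this value was not tested.

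The other 6 were the zinc finger gene Zfp617 (-0.46), Abhd18, an abhydrolase domain gene (-0.34), the tRNA methyltransferase Trmt5 (-0.34), the Mediator subunit Med7 (-0.28), Rpp21, of ribonuclease P (-0.26), and the protocadherin Pcdhgb8 (-0.54).

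The knockout differences in 12-month aorta played no part in choosing these genes. The 7 aged arrays entered only through the spread shared in the fit and the overall median. Of the 12 genes higher in young knockout, 5 had a higher mean in aged knockout, and of the 11 described as lower, 6 had a lower mean. Among the 10239 genes above the same level, after the exclusions by gene type given below, the shares were 44.1% higher and 55.9% lower. In the pools from which the genes came, 36.1% of those higher and 43.7% of those lower kept their direction in aged aorta. None of the 23 was among the 12 genes called in aged aorta (0.0565% of 21225). Of the 23, Cd274 and Fas had arrays that did not overlap in the same direction at both ages, where in aged aorta 10.4% of all genes did not overlap, 5.25% with knockout higher and 5.11% with it lower.

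Cd274 read 7.51, 7.53, 7.50 and 7.66 in aged MR-intact and 7.92, 7.91 and 8.0 in aged knockout aorta, a difference of 0.40 (95% interval 0.24 to 0.55, limma adjusted p = 0.0578). Fas read 8.06, 7.66, 8.06 and 8.05 against 8.25, 8.13 and 8.36, a difference of 0.29 (limma adjusted p = 0.151). The aged knockout arrays also carried more B lymphocyte signal (list mean 6.97 to 8.67, against 5.43 to 5.88 in aged MR-intact), and its part in these values was not tested. Timp4 differed by -0.04 in aged aorta, Bmp2 by -0.09 and Calm2 by -0.16, with overlapping arrays.

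A pair of genes outside the naming rule are given because of their p or their aged call, and were chosen after their values were seen. Ccl22, a chemokine that draws CCR4-bearing T cells, had a low level of 3.48, 3.50 and 3.58 in MR-intact aorta, against 3.94, 4.10 and 4.20 in knockout aorta, a difference of 0.56 (95% interval 0.31 to 0.82, limma adjusted p = 1). Its difference in aged aorta was 0.42, again without overlap. Ibsp, the bone sialoprotein gene, also had a low level. It read 3.82, 3.57 and 3.70 in MR-intact aorta, against 3.43, 3.23 and 3.35 in knockout aorta (difference -0.36). Its aged difference was -0.90 (limma adjusted p = 0.0204). Of the 12 genes called in aged aorta, Ibsp alone had young arrays that did not overlap, where 9.48% of all genes did not.

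The corticosteroid response list held 34 measured members and its median difference was -0.07, against 0.01 over all genes. No member passed the test or had an unadjusted limma p under 0.05; 5 did not overlap with knockout lower (14.7% of the list, against 4.06% of all genes) and 2 with knockout higher (against 5.43% of all genes), Tgfb1 and Icam1. After a second quantile normalization 5 were lower and 4 higher, against 5.23% and 4.82% of all genes, and after centring 5 and 1, against 7.5% and 3.26%. The list mean was 8.24, 8.29 and 8.14 in MR-intact aorta, against 8.08, 8.21 and 8.09 in knockout aorta, so the genotypes overlapped. The median ranged from -0.12 without MR-intact replicate 3 to -0.02 without MR-intact replicate 2.

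Zbtb16, a zinc finger repressor induced by glucocorticoids, read 9.27, 9.54 and 9.12 in MR-intact aorta, against 8.49, 9.41 and 8.38 in knockout aorta, a difference of -0.55 (95% interval -1.19 to 0.10). Fkbp5, a co-chaperone of steroid receptors that they induce, read 6.74, 6.69 and 6.35 against 5.75, 6.67 and 5.84, a difference of -0.50 (95% interval -1.12 to 0.11). For both genes knockout replicate 2 read like MR-intact aorta while knockout replicates 1 and 3 were lower. Tsc22d3, which encodes the glucocorticoid-induced leucine zipper, read 7.94, 8.25 and 8.10 against 7.50, 7.89 and 7.85, a difference of -0.35 without overlap. Errfi1, a feedback inhibitor of the EGF receptor, differed by -0.31 and Nfkbia, the inhibitor of NF-kappa-B, by -0.25, both without overlap. In aged aorta Tsc22d3 differed by 0.16, Nfkbia by 0.22 and Errfi1 by -0.22, with overlapping arrays.

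**Figure D3:**
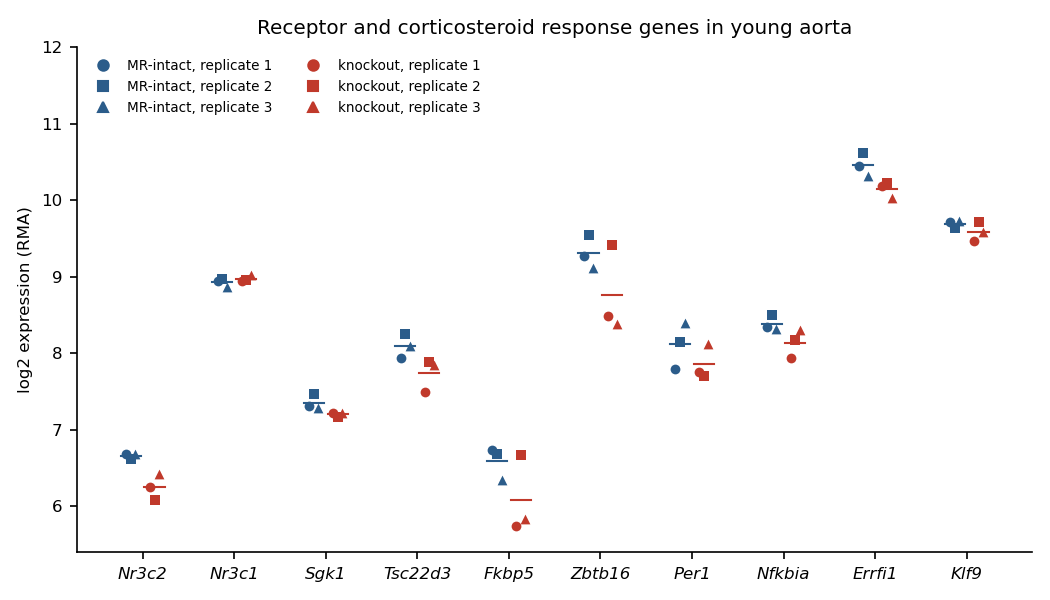
Log2 level (vertical axis) of the 2 corticosteroid receptor genes and 8 response genes on each young array, MR-intact in blue and knockout in red, with a symbol per replicate and a line at each group mean. Nr3c2 is lower on all 3 knockout arrays, Nr3c1 overlaps, and Fkbp5 and Zbtb16 split within the knockout group.

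No difference was detected in the contractile apparatus at this precision. The contractile smooth muscle list of 35 genes had a median difference of -0.01, or 0.02 after a second quantile normalization, and the 95% interval lay within 0.5 log2 units of 0 for 27 of them. Acta2, smooth muscle actin, differed by -0.03 (95% interval -0.28 to 0.22). Myh11, the smooth muscle myosin heavy chain, differed by 0.00 (95% interval -0.32 to 0.32). Myocd, the coactivator that drives the contractile genes, read 9.26, 9.39 and 9.31 in MR-intact aorta, against 9.33, 9.49 and 9.32 in knockout aorta, a difference of 0.06 (95% interval -0.34 to 0.46). The member with the smallest p was Pln, phospholamban, which is also a heart gene: it read 8.64, 8.38 and 6.21 in MR-intact aorta, against 6.54, 7.23 and 6.82 in knockout aorta, in step with the cardiac list within MR-intact. In aged aorta the same list had a median of -0.39.

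The extracellular matrix was close to level in young aorta. The median difference was -0.02 over 36 fibrillar collagen and cross-linking genes and -0.01 over 24 basement membrane genes. It was 0.02 over 21 elastic fibre genes, or 0.00 after centring. The aged medians were -0.28, -0.23 and -0.29 in that order. All 36 intervals of the collagen list lay within 0.5 log2 units. Col1a1, a chain of type I collagen, differed by -0.13 (95% interval -0.35 to 0.09). Among 39 matrix proteases and inhibitors, with a median of 0.00, Timp4 alone had an unadjusted limma p under 0.05. Among 28 integrin and focal adhesion genes the laminin receptor subunit Itga6 differed by -0.25 with overlapping arrays (95% interval -0.50 to -0.01).

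**Figure D4:**
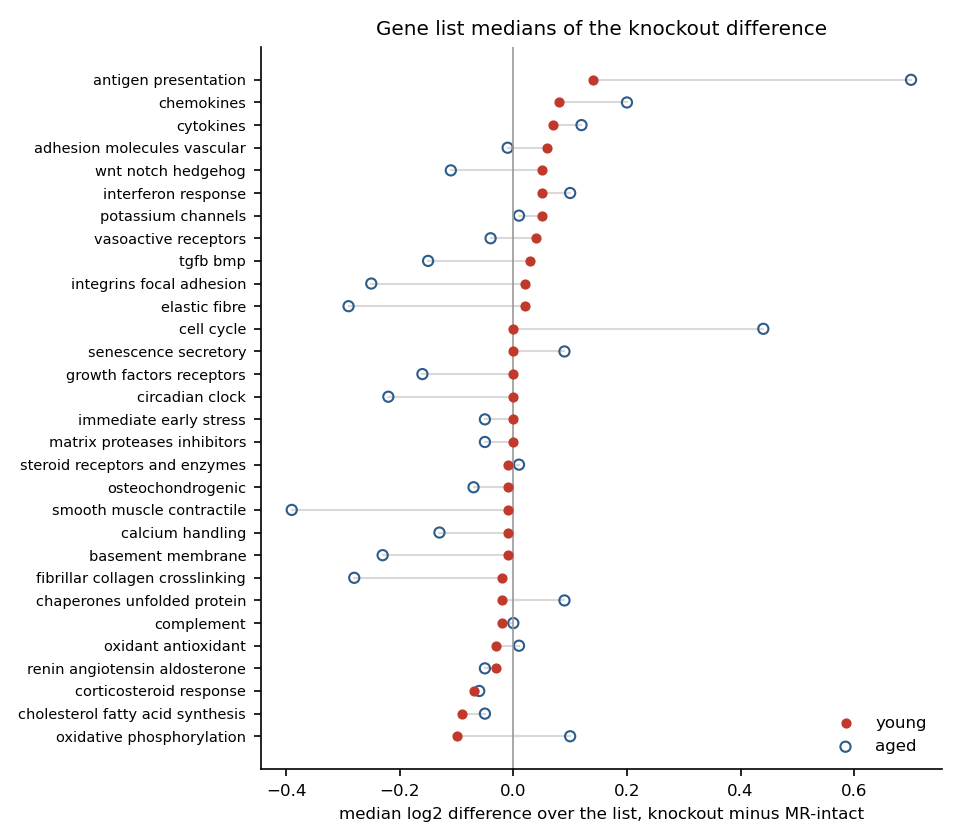
Median log2 difference, knockout minus MR-intact (horizontal axis), over each of the 30 pathway lists (vertical axis) in young aorta (filled red) and aged aorta (open blue). The young medians run from -0.10 for oxidative phosphorylation to 0.14 for antigen presentation, and those of the contractile and matrix lists sit near 0 in young aorta and below 0 in aged aorta.

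Oxidative phosphorylation, the respiratory chain and ATP synthase of mitochondria, had a median difference of -0.10 over 44 genes. The list mean was 10.33, 10.34 and 10.27 in MR-intact aorta, against 10.17, 10.24 and 10.22 in knockout aorta, without overlap. No member passed the test or had an unadjusted limma p under 0.05. For 16 members (36.4%) the arrays did not overlap with knockout lower, and for 0 with knockout higher; over all genes these shares were 4.06% and 5.43%, and in the brightest 20%, where most of these genes lie, 7.35% and 3.2%. After a second quantile normalization 8 of the 44 did not overlap with knockout lower and 1 with it higher, against 5.23% and 4.82% of all genes. After centring the counts were 21 and 0, against 7.5% and 3.26% of all genes. The counts under these 2 scalings were added after the data were seen. The median stayed between -0.12 and -0.07 under every alternative run.

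By complex, 37 of the 39 subunits had a lower mean in knockout. In complex I, which takes electrons from NADH, 16 of 17 subunits did (median -0.16), and in complex II, succinate dehydrogenase, 4 of 4 (-0.07). In complex III 5 of 5 did (-0.10), in complex IV, cytochrome c oxidase, 6 of 7 (-0.11), and in complex V, the ATP synthase, 6 of 6 (-0.08). Ndufs1, a core subunit of complex I, read 10.19, 10.20 and 10.15 in MR-intact aorta, against 9.86, 9.98 and 10.03 in knockout aorta, a difference of -0.22 (95% interval -0.46 to 0.01). Ndufb5, an accessory subunit of the same complex, read 10.78, 10.75 and 10.68 against 10.45, 10.54 and 10.62 (difference -0.20). Cox5b, of complex IV, read 12.24, 12.21 and 12.17 against 12.03, 12.14 and 12.05 (difference -0.13). Knockout replicate 1 was the lowest array for all 3 genes.

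In aged aorta the list median was 0.10, of the opposite sign. Other groups were looked at after these values were seen. The 76 mitochondrial ribosomal protein genes had a median of -0.10, and 22 of them (28.9%, against 4.06% of all genes) did not overlap with knockout lower. The 43 proteasome genes of the files' annotation had a median of -0.07, with 9 (20.9%) not overlapping with knockout lower and 2 with it higher. The 43 cytosolic ribosomal protein genes had a median of -0.03, with 1 such gene. After a second quantile normalization, where the share over all genes was 5.23%, these counts were 17, 4 and 3. Brown fat is rich in mitochondria, and its marker list read 9.96, 9.97 and 9.80 in MR-intact aorta, against 9.85, 9.92 and 9.72 in knockout aorta (median of 13 genes -0.10). Its part in the mitochondrial values was not tested.

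**Figure D5:**
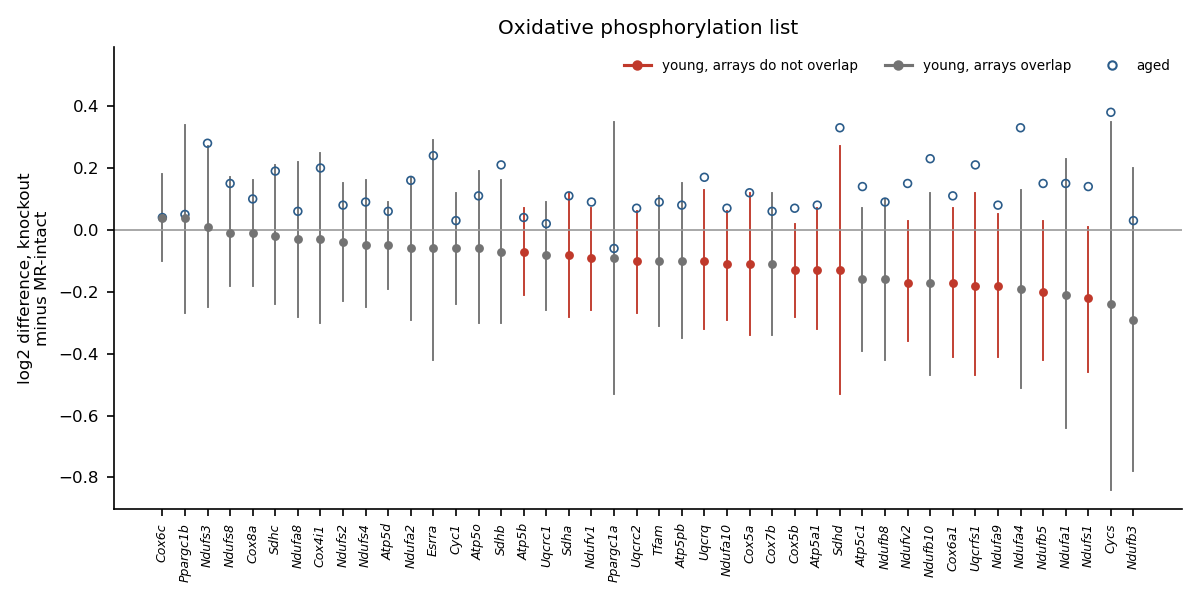
Log2 difference, knockout minus MR-intact (vertical axis), for the 44 genes of the oxidative phosphorylation list in order of size, with 95% intervals from limma for young aorta and open blue circles for aged aorta. Red marks the 16 genes whose young arrays did not overlap, and nearly all young points lie below 0 with intervals that reach across it.

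Antioxidant and vasoactive genes held a few members with non-overlapping arrays. Prdx1, a peroxiredoxin that removes peroxide, read 9.70, 9.71 and 9.60 in MR-intact aorta, against 9.18, 9.41 and 9.52 in knockout aorta, a difference of -0.30 (95% interval -0.54 to -0.05). It was 1 of 5 among 36 oxidant and antioxidant genes that did not overlap with knockout lower, with 0 higher and a median of -0.03; over all genes these shares were 4.06% and 5.43%. After a second quantile normalization 5 were lower and 3 higher, against 5.23% and 4.82% of all genes. After centring 7 were lower and 0 higher, against 7.5% and 3.26% of all genes. Bdkrb2, the bradykinin B2 receptor, read 4.95, 5.03 and 4.91 against 5.33, 5.17 and 5.10, a difference of 0.24 (95% interval 0.02 to 0.45). Htr1b, a contractile serotonin receptor of arteries, read 8.46, 8.51 and 8.37 against 7.93, 8.35 and 8.08, a difference of -0.33 (95% interval -0.67 to 0.01). Htr1b also lay lower without overlap in aged aorta, at -0.57. In the 44 vasoactive receptor genes 5 did not overlap with knockout higher and 1 with knockout lower, against 5.43% and 4.06% of all genes. The 5 became 3 after centring and after a second quantile normalization, where the shares over all genes were 3.26% and 4.82%.

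Of 18 genes of the renin, angiotensin and aldosterone system, Cma1 was the only one beside Nr3c2 with an unadjusted limma p under 0.05. Cma1, the chymase of mast cells that can form angiotensin II, read 6.19, 5.98 and 6.19 in MR-intact aorta, against 5.64, 5.75 and 5.95 in knockout aorta (difference -0.34). The 10 mast cell markers, which include Cma1, averaged 5.96, 5.84 and 5.92 against 5.69, 5.68 and 5.93, and their part in this value was not tested. Agtr1a, the angiotensin II type 1a receptor, differed by -0.16 with overlapping arrays.

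The median difference was 0.08 in the chemokine list, 0.07 in the cytokine list and 0.14 in the antigen presentation list. In the same order these were 0.0, 0.09 and -0.01 without knockout replicate 3, 0.04, 0.07 and 0.08 without MR-intact replicate 3, and 0.05, 0.03 and 0.05 with array weights. Of 30 chemokine genes 5 did not overlap with knockout higher and 0 with it lower, against 5.43% and 4.06% of all genes; besides Ccl22 these were Ccl3, Ccl5, Cxcl1 and Cxcr3. Ccl5 read 6.45, 6.52 and 6.51 in MR-intact aorta, against 6.74, 6.70 and 8.53 in knockout aorta, and the class II gene H2-Aa read 9.34, 9.63 and 9.15 against 9.44, 9.30 and 10.18. For both, knockout replicate 3, the array high for B lymphocyte markers, was well above the rest. With the mean of the B lymphocyte list as a covariate, the median was 0.06 in each of these 3 lists.

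The largest differences in young aorta were in immunoglobulin and striated muscle genes. Most immunoglobulin genes among them were highest on knockout replicate 3, while striated muscle genes were high on several arrays. The absolute log2 difference was at least 1 for 10 genes: 7 with knockout higher were immunoglobulin genes, joined by Jchain and Glycam1, and Myl7, an atrial myosin light chain, was lower. Igha, the IgA heavy chain, read 7.32, 8.41 and 7.40 in MR-intact aorta, against 6.66, 7.88 and 11.69 in knockout aorta, with the excess on knockout replicate 3. Over 81 immunoglobulin genes and segments the median difference was 0.18, and -0.02 without that array; it was 0.32 and 0.29 without knockout replicates 1 and 2, 0.49 without the dimmest 1 in 3 features and 0.09 with array weights. Ighg2b, an IgG heavy chain, had the largest difference (1.31). It read 4.94, 5.87 and 5.72 in MR-intact aorta, against 5.87, 6.33 and 8.25 in knockout aorta. Its arrays did not overlap, by a margin lost in rounding. One of the light chain variable segments was also higher on all 3 knockout arrays, at 6.08, 5.84 and 6.35 against 5.10, 4.26 and 5.36 in MR-intact aorta. Without knockout replicate 3, 37 genes differed by at least 1.

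Myl7 read 9.12, 8.74 and 5.59 in MR-intact aorta, against 5.44, 7.60 and 6.99 in knockout aorta. H19, an imprinted long noncoding RNA known from fetal and muscle tissue, read 7.06, 6.86 and 5.34 against 5.32, 5.34 and 6.76, with the same 3 arrays high as for skeletal muscle. Both genes overlapped between the genotypes. The skeletal muscle list had a median difference of -0.53 and the cardiac list of -0.71, and 0 members of either list had non-overlapping arrays.

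Fewer and smaller knockout differences were measured in young than in 12-month aorta. The median absolute log2 difference was 0.067 in young and 0.103 in aged aorta, and 10 against 232 genes differed by at least 1. At an unadjusted limma p under 0.05 there were 549 genes (2.59%) in young and 3744 (17.6%) in aged aorta. The median gene SD was 0.09 in young MR-intact, 0.096 in young knockout, 0.114 in aged MR-intact and 0.148 in aged knockout aorta. The fit gives each gene a single spread for all groups, so the counts at an unadjusted p also depend on these unequal spreads. With the 6 young arrays alone in the fit, the young count was 971. The test of the difference between the ages called 0 of 21225 genes (0.0%) with limma, with 1723 (8.12%) at an unadjusted p under 0.05. Its lowest adjusted p was 0.0843, for Ube2ql1, which differed by 0.03 in young and -2.28 in aged aorta. The sign of the difference was shared between the ages by 55.3% of genes. Arrays did not overlap in the same direction at both ages for 73 genes with knockout higher and 45 with knockout lower. The 73 were 6.34% of such genes in young and 6.55% of those in aged aorta, and the 45 were 5.23% and 4.15%. These are near the shares over all genes, 5.43% higher and 4.06% lower in young aorta and 5.25% and 5.11% in aged aorta. The labels give every aged title the letter A and every young title the letter B, and whatever that letter marks cannot be told apart from age.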

How the data were processed

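Biotin-labelled total aortic RNA was hybridised to 13 arrays. The authors deposited 1 log2 value for each gene on each array, made with RMA (background correction, quantile normalization and probe summary) with affy and limma also named, per the submitters' processing notes; the sources used here give no versions and no array platform. Some columns of the deposited log2 table have headers that are numbers, so their unit was recorded as other. The authors' deposited table also gives, per the file headers, a fold change with a sign (a score that is negative where knockout is lower) and an unadjusted p-value.

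All 13 arrays entered 1 limma model (limma 3.58.1, R 4.3.3) with a mean per group (9 residual and 3.41 prior degrees of freedom), no further scaling or filter, and Benjamini-Hochberg adjustment over 21225 genes; calls were made at an adjusted p under 0.05. The fit was tested on simulated data. Of the features, 20768 matched the RefSeq gene table by Entrez ID and 2463 symbols were updated. With 3 against 3 arrays an exact permutation test cannot give a p under 0.1, and the number of arrays limits the precision. Intervals are 95% intervals of the limma difference. Named genes were the 12 per direction with the smallest limma p among non-overlapping genes with a higher group mean above the overall median, leaving out predicted genes, clones, chemosensory receptors, microRNAs, small nucleolar RNAs and single immunoglobulin or T cell receptor segments; Nr3c2, Nr3c1 and up to 4 members per list were added, with further list members chosen after their values were seen. One result under this rule is not reported here. The genes, the 30 pathway lists and the 16 marker lists were chosen with earlier results of these data known. Alternatives were the 6 young arrays alone, array weights, other scalings, a filter on dim features, a trended robust prior, the rounded table, muscle or B lymphocyte list means as covariates, and leaving out arrays.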

Additional observations from a re-analysis of the deposited data

Results flagged for a closer look

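Of 239 results examined, 5 separated the arrays of the genotypes without overlap at both ages, but in opposite directions in young and in 12-month aorta; for 4 of them the difference itself was tested. The tRNA methyltransferase Trmt5 differed by -0.34 in young aorta and 0.13 in aged aorta, without overlap of arrays at either age. The protease inhibitor Serpine2 differed by 0.24 in young aorta, with knockout higher on all arrays, and by -0.54 in aged aorta, with knockout lower on all. The growth factor Fgf7 differed in the same way, by 0.22 in young and -0.19 in aged aorta. The ectonucleotidase Entpd2 differed by 0.11 in young and -0.31 in aged aorta. The limma test of the difference between the ages was under an unadjusted 0.05 for these 4 genes. How many of all genes would be flagged in this way was not counted, and some results were examined because of their young values. These 4 genes were flagged for opposite directions on these same arrays, so the unadjusted values are no separate test. None passed over all genes (limma adjusted p = 0.609 for each). The mean of the Wnt, Notch and hedgehog list of 46 genes was 0.05 higher in young knockout and differed by -0.14 in aged knockout, and this difference between the ages was not tested.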

How the results depend on the processing

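The count of called genes in young aorta was 0 in the reported fit and under all but 1 of the alternatives run: with both MR-intact replicate 3 and knockout replicate 3 left out it was 1, the muscle-associated RNA H19 (lower, limma adjusted p = 0.029). The count at an unadjusted limma p under 0.05, 549 as reported, was 971 with the 6 young arrays alone, 1804 with array weights, 242 without the dimmest 1 in 3 features (fewer genes tested), 1206 without both replicates 3, and 319 to 933 leaving out 1 array at a time; the cause of the other shifts was not tested. The count of genes whose knockout effect differed between the ages was 0, but 1 with array weights (Ube2ql1, limma adjusted p = 0.0256) and 1 with the mean of the B lymphocyte markers as covariate (Orm3, limma adjusted p = 0.0347). Nr3c2 ranged from -0.49 to -0.32. The 23 described genes and Nr3c2 kept their direction in all alternatives. Their young arrays do not overlap, so leaving out arrays could not have reversed it, and this does not count as a test. The lowest limma adjusted p of the described genes was 0.146. No paired analysis was possible because the labels give the groups no shared replicate numbers. Precision is limited by 3 arrays per group.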
